A study of Mus musculus with 48 samples.

Results

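Cidec is one of the genes whose human counterparts the study proposed as blood markers of late-onset depression, after using the blood of ovariectomized, stressed mice to narrow its candidates. The values below describe Cidec with 9 other genes of the lipid droplet, which are Cideb, Plin2, Plin3, Pnpla2, Lipe, Abhd5, Dgat1, Dgat2 and G0s2. The members were the probes that the array files name after one of these 10 genes, which gave 14 of the 55681 probes on the array and 10 of the 34844 distinct names in its gene name column. Cidec and Cideb had 2 probes each, Abhd5 had 3, and the other members had 1. That narrowing kept blood probes that differed from control in OVX+CUMS mice but not in OVX or CUMS mice. The differences of these groups from control in Cidec are therefore described here and are not independent evidence.

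The arrays came from 24 female C57BL/6J mice aged 17 weeks, with 6 mice in each of 4 groups. Control mice had sham surgery and no stress, CUMS mice had sham surgery and chronic ultra-mild stress, OVX mice had their ovaries removed and were not stressed, and OVX+CUMS mice had both. All groups therefore went through surgery. Each mouse gave 2 arrays, from the pellet of heparinized whole blood and from the medial prefrontal cortex (mPFC), which makes 48 one-colour arrays. The blood pellet holds red cells, platelets and all classes of leukocytes together, and the mPFC sample holds neurons, glia and vessels. In such bulk samples, fewer cells of a type and less RNA per cell cannot be told apart.

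A lipid droplet is a core of triglyceride and sterol ester under a coat of phospholipid and protein. The diacylglycerol acyltransferases Dgat1 and Dgat2 make the triglyceride, perilipins such as Plin2 and Plin3 coat the droplet, and CIDE proteins such as Cidec and Cideb join droplets so that large droplets grow at the cost of small ones. Pnpla2, the adipose triglyceride lipase, starts lipolysis with its coactivator Abhd5 and is held back by its inhibitor G0s2, and Lipe, the hormone-sensitive lipase, takes the next step. Cidec is best known from fat cells and Cideb from liver and intestine.

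A level on these arrays is the brightness of 1 probe, so 4 probes are printed to show which stretch of RNA was read. The Cidec probe is the one all Cidec values rest on, the Cideb probe is the one of its pair that was dim in blood, the Lipe probe was near background in blood, and the Dgat1 probe crosses a splice junction. Each has at least 1 reading frame without a stop codon. All 4 are on the minus strand of the mm9 build. They start at base 552 of the Cidec transcript (chr6:113378116-113378175), at base 486 of Cideb (chr14:56373658-56373717), at base 2231 of Lipe (chr7:26165828-26165887) and at base 1204 of Dgat1 (chr15:76333128-76333274, a span of 147 bases for a probe of 60 bases). Each is read 5′ to 3′, and no part is in capitals because the whole stretch is the target.
Cidec: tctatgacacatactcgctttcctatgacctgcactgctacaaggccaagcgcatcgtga
Cideb: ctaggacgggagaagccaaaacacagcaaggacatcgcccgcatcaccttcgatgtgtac
Lipe: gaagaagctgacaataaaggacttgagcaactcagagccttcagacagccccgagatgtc
Dgat1: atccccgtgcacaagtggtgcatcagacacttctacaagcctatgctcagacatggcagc
The second Cidec probe starts at base 1642, the second Cideb probe at base 1063, and the Abhd5 probes at bases 503, 1363 and 2489.

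A level here is the log2 of the background-subtracted signal minus the 75th percentile of that array, so 0 is the 75th percentile itself, and levels of different probes cannot be set against each other. Detection in a tissue required a probe to stand well above background on all 24 arrays, with a signal over 50 on at least 2. In blood 10 of the 14 member probes, from 9 genes, were detected among 20748 probes. In mPFC 12 of 14, also from 9 genes, were detected among 28353. Lipe was missing from the detected set in blood and Cidec in mPFC. The 75th percentile was 54.9 to 192 signal units in blood and 572 to 689 in mPFC. Each tissue was hybridised on 3 slides of 8 arrays, with all control mice on slide 1, all OVX+CUMS mice on slide 3, and the CUMS and OVX mice spread over 2 slides each.

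Cidec was higher in the blood of OVX+CUMS mice than in any control mouse. The probe at base 552 was at -2.46, -2.05 and -1.73 (lowest, median and highest) in control mice and at -1.44, -1.08 and -0.68 in OVX+CUMS mice. In CUMS mice it ran from -2.86 through -1.49 to -0.44, and in OVX mice from -2.06 through -1.76 to -0.91. The OVX+CUMS and control groups did not overlap, whereas both single-treatment groups overlapped the controls, and the CUMS mice held both the lowest and the highest of all 24 values. The control and OVX+CUMS groups differed by 0.96 ± 0.27 (SE, 95% interval 0.42 to 1.51) on the log2 scale (limma F test, adjusted p = 0.0202, Tukey p = 0.00686, exact two-sided permutation p = 0.00216). That exact p is the smallest that 6 against 6 mice allow. OVX alone gave 0.41 ± 0.27 (exact permutation p = 0.0606) and CUMS alone 0.54 ± 0.27 (exact permutation p = 0.165). Neither passed Tukey's test, but the study chose its probes by that same pattern in these mice, so it is no independent result. The 3 comparisons share the control mice. With 1 array left out, CUMS alone ran from 0.32 to 0.80, and it was called without CUMS mouse 4.

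Averaged over both surgeries, stress raised Cidec by 0.54 ± 0.19 (limma, adjusted p = 0.0221). Averaged over both stress levels, OVX gave 0.42 ± 0.19, which missed the threshold of 0.05 (limma, adjusted p = 0.0605). The interaction was 0.01 with an interval from -0.76 to 0.79. Both effects, the interaction and the slide values below use the mice by which the study chose Cidec, so none is independent evidence. With the slide as a block, the stress effect was 0.49 ± 0.28 (limma, adjusted p = 0.131) and was no longer called. In the same fit the OVX+CUMS difference was 0.81 ± 0.65 (limma, adjusted p = 0.702) and was not called either. Within slide 3, the 6 OVX+CUMS mice were 0.56 above the 2 OVX mice (exact permutation p = 0.0357). Within slide 1, 2 CUMS mice were 0.43 above the 6 control mice (exact permutation p = 0.143), and within slide 2, CUMS and OVX mice differed by 0.17 (exact permutation p = 0.771). No slide held both control and OVX+CUMS mice, so slide and group cannot be told apart in that comparison.

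The other Cidec probe, at base 1642, stood above background on 1 of 24 blood arrays. That array, CUMS mouse 2, had a level of -0.55 and a signal of 37.5, and the next CUMS mouse was at -5.02. The groups of this probe therefore carry no measured difference, and the Cidec differences in blood rest on 1 probe.

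**Figure D1:**
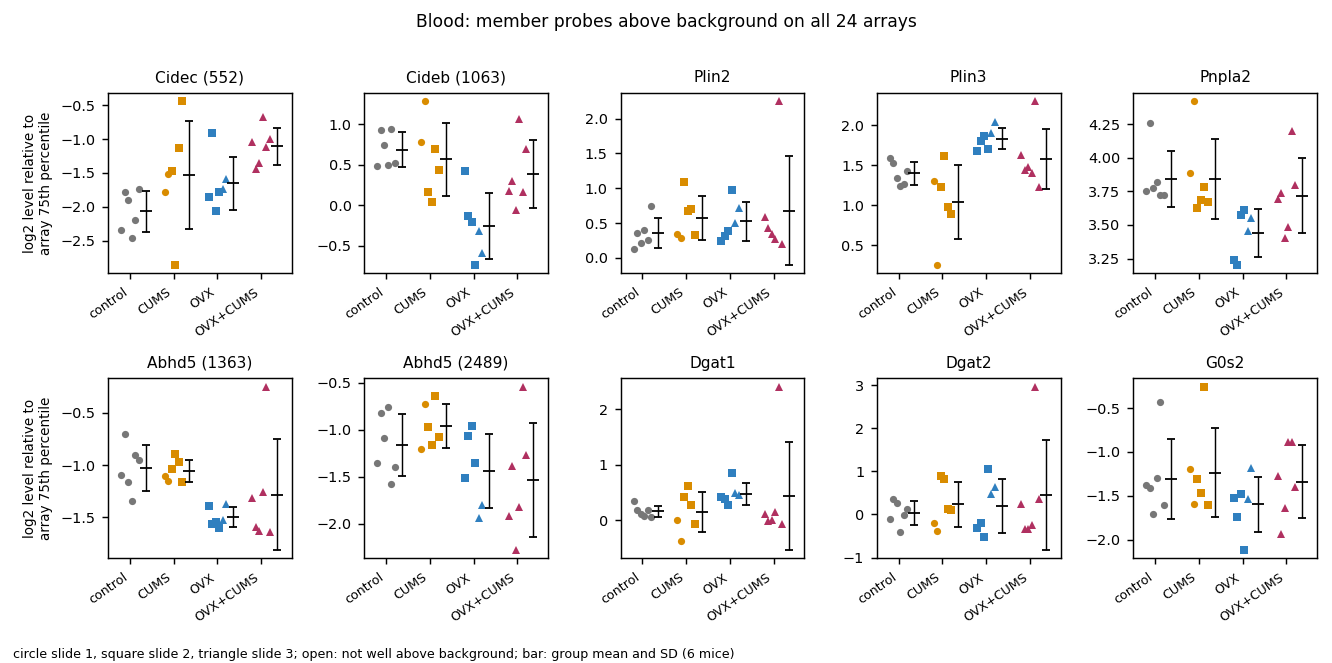
Levels of the 10 detected member probes in blood (log2 signal minus the array's 75th percentile), 1 point per mouse with the slide shown by the marker, and bars for the mean ± SD of 6 mice. Cidec of OVX+CUMS mice lies above every control mouse, Cideb of OVX mice lies below every control mouse, and 1 OVX+CUMS mouse stands far above its group in Plin2, Dgat1 and Dgat2.

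Cideb, the other CIDE gene of the set, was lower after ovariectomy, a call that ended with the slide as a block. The probe at base 1063 was at 0.48, 0.63 and 0.94 (lowest, median and highest) in control mice, and at -0.74, -0.26 and 0.43 in OVX mice. CUMS mice lay between 0.05 and 1.29 with a median of 0.56, and OVX+CUMS mice between -0.06 and 1.07 with a median of 0.23. Every OVX mouse was below the lowest control mouse, and the other groups overlapped the controls. OVX alone lowered Cideb by a log2 difference of -0.95 ± 0.21 (limma F test, adjusted p = 0.00229, Tukey p = 0.000854, exact permutation p = 0.00216). Over both stress levels OVX gave -0.56 ± 0.15 (limma, adjusted p = 0.0039). OVX+CUMS differed from control by -0.30 ± 0.21 (Tukey p = 0.506, exact permutation p = 0.145). The interaction of 0.77 ± 0.30 did not pass the adjustment (limma, adjusted p = 0.172). With the slide as a block, OVX alone gave -0.15 ± 0.36 and the effect over both stress levels turned to 0.10 ± 0.30, and neither was called. That fit called a stress effect on Cideb of 0.60 ± 0.19 (limma, adjusted p = 0.0187), so the 2 members it called for CUMS were Cideb and Plin3 in place of Cidec and Plin3. The probe at base 486, printed above, was at a signal of 2.52 to 16.5 in blood and was not detected there.

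Of the coat proteins, Plin3 was called and Plin2 was not. Plin3, a perilipin that moves from the cytosol onto new droplets, lay between 1.24 and 1.59 in control mice with a median of 1.38, and between 1.68 and 2.04 in OVX mice with a median of 1.84. CUMS mice ran from 0.26 through 1.10 to 1.62, and OVX+CUMS mice from 1.22 through 1.46 to 2.30. All 6 OVX mice were above all 6 control mice. Over both stress levels OVX raised Plin3 by 0.48 ± 0.12 (limma, adjusted p = 0.00318), and over both surgeries CUMS lowered it by a difference of -0.30 ± 0.12 (limma, adjusted p = 0.0477). With 1 array left out, that CUMS call was lost in 17 of 24 fits. OVX alone against control was 0.43 ± 0.18 (Tukey p = 0.0946, exact permutation p = 0.00216), and OVX+CUMS was 0.18 ± 0.18 (Tukey p = 0.739). With the slide as a block, the OVX effect was 0.08 and not called, and the CUMS effect was -0.51 (limma, adjusted p = 0.0221). Within slide 2, CUMS mice were lower than OVX mice by a difference of -0.59 (exact permutation p = 0.0286), but these groups differ in surgery as well as stress. Within slide 1, 2 CUMS mice differed from the 6 control mice by -0.62 (exact permutation p = 0.107). Within slide 3, the 6 OVX+CUMS mice differed from 2 OVX mice by -0.39 (exact permutation p = 0.214).

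Plin2, the perilipin that coats droplets in most cells, had medians of 0.31 in control, 0.51 in CUMS, 0.45 in OVX and 0.39 in OVX+CUMS mice. The groups overlapped throughout. The OVX+CUMS difference was 0.33 ± 0.25 (limma F test, adjusted p = 0.645), with an interval from -0.19 to 0.84. OVX+CUMS mouse 5 was at 2.25 and the next mouse of its group at 0.58.

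Of the lipolysis genes, Pnpla2 and Abhd5 were called lower after ovariectomy, G0s2 was not called, and Lipe was not detected. Pnpla2 lay between 3.72 and 4.26 in control mice (median 3.76) and between 3.20 and 3.61 in OVX mice (median 3.50), with no overlap. CUMS mice were between 3.62 and 4.42 (median 3.73) and OVX+CUMS mice were at 3.40 or above (median 3.72), and both groups overlapped the controls. OVX alone gave -0.40 ± 0.14 (limma F test, adjusted p = 0.0417, Tukey p = 0.0442, exact permutation p = 0.00216), and OVX over both stress levels -0.26 ± 0.10 (limma, adjusted p = 0.0313). Both values depended on the scaling, since relative to the spike-in RNA they were 0.01 and 0.08, and with the slide as a block they were 0.03 and -0.02. With 1 array left out, the call was lost in 13 of 24 fits for OVX alone and in 6 of 24 for OVX over both stress levels. In OVX+CUMS mice the difference was -0.12 ± 0.14 (Tukey p = 0.825, exact permutation p = 0.424).

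Abhd5, the coactivator of Pnpla2, was lower after OVX with both detected probes. The probe at base 1363 lay between -1.34 and -0.70 in control mice and between -1.60 and -1.37 in OVX mice, with no overlap. OVX gave -0.35 ± 0.12 at this probe (limma, adjusted p = 0.0171) and -0.42 ± 0.16 at the probe at base 2489 (limma, adjusted p = 0.0299). OVX alone against control was called at base 1363 (-0.47 ± 0.17, limma F test adjusted p = 0.0451, Tukey p = 0.045, exact permutation p = 0.00216), and at base 2489 it was -0.27 ± 0.23. With 1 array left out, that call at base 1363 was lost in 18 of 24 fits, and the OVX call at base 2489 in 8 of 24. The third probe, at base 503, missed detection in blood on some control and CUMS arrays. Relative to the spike-in RNA the OVX differences were -0.01 at base 1363 and -0.08 at base 2489. With the slide as a block they were -0.47 ± 0.27 (limma, adjusted p = 0.807) and 0.01 ± 0.34 (limma, adjusted p = 0.998), and on neither scale was any of them called.

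G0s2, the inhibitor of Pnpla2, was not called in blood. Its medians were -1.39 in control, -1.39 in CUMS, -1.53 in OVX and -1.34 in OVX+CUMS mice, and the OVX+CUMS difference was -0.03 with an interval from -0.52 to 0.45. Lipe was near background, above it on 13 of 24 blood arrays at signals of 1.93 to 25.8, so that a difference could not be measured in blood.

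The enzymes of triglyceride synthesis were not called in blood. Dgat1 had medians of 0.14, 0.14, 0.43 and 0.05 in control, CUMS, OVX and OVX+CUMS mice. Of the OVX mice, 5 of 6 were above every control mouse (exact permutation p = 0.00433), yet the fitted difference of 0.32 ± 0.29 did not pass the limma F test (adjusted p = 0.553). Dgat2 had medians of 0.05, 0.12, 0.13 and 0.00 in the same order. OVX+CUMS mouse 5 was at 2.41 for Dgat1 and 2.97 for Dgat2, against 0.15 and 0.37 in the next mouse of its group.

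OVX+CUMS mouse 5 also stood apart in leukocyte markers. Its neutrophil list, of which 12 of 15 probes were detected, was 2.97 above the mean of all blood arrays, while the other OVX+CUMS mice lay between -0.56 and -0.16. Without this mouse the OVX+CUMS means were 0.37 for Plin2, 0.03 for Dgat1 and -0.06 for Dgat2, close to the control means of 0.35, 0.16 and 0.03. The part of these markers in the members' levels was not tested. Cidec was -1.10 without the mouse and -1.11 with it. Leaving the mouse out raised the count of member probes called for OVX+CUMS from 1 to 3, through both Abhd5 probes, which were then lower than in control mice. Without this mouse Dgat1 was also called lower for CUMS (-0.23), and Plin3 was called higher for OVX alone.

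By count, 5 of 10 detected member probes in blood were called for OVX (1 higher and 4 lower), against 55.1% of all detected probes (27.4% higher and 27.7% lower). For CUMS 2 of 10 were called (1 higher and 1 lower) against 48.5% of all (19.1% higher and 29.4% lower). The interaction was called at 0 of 10 members by limma (1 at an unadjusted p under 0.05, which was Cideb) and at 1.42% of all. For OVX+CUMS against control, Cidec was the 1 of 10 called, against 10.4% of all probes (5.27% higher), and 1 of 10 had groups that did not overlap, against 8.18% of all. The study chose Cidec by this comparison in these mice, so neither count is independent of that choice, nor is the count for CUMS. No other member was called or had groups without overlap in this comparison. OVX alone gave 3 of 10 (all lower) against 25.1% (17% lower). With the percentile taken over detected probes, OVX alone gave 1 higher (Plin3) and 1 lower (Cideb). CUMS alone gave 0 of 10 against 26.4%, with no member at an unadjusted p under 0.05. The members' shares were thus near or below those of all probes in each of these comparisons. Their median log2 differences were -0.03 for OVX, 0.15 for CUMS and 0.07 for OVX+CUMS, and those of all probes were 0.04, -0.03 and -0.06. Relative to spiked-in RNA in place of the 75th percentile, the median of all blood probes moved to 0.39 for OVX and -0.33 for CUMS. On that scale 3 members were called for OVX and 2 for OVX alone, all of them higher, Cidec passed for OVX at 0.76 and no longer for CUMS at 0.25, and its OVX+CUMS difference was 1.01 and still called.

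**Figure D2:**
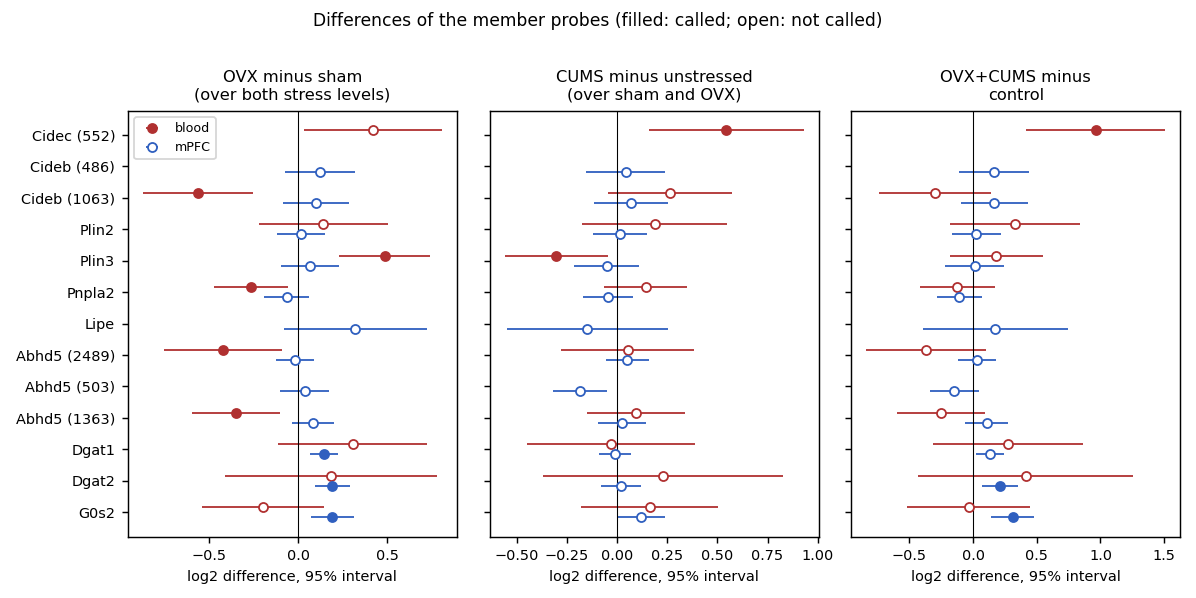
Log2 difference of each detected member probe for OVX (over both stress levels), CUMS (over both surgeries) and OVX+CUMS against control, in blood (red) and mPFC (blue), with 95% intervals from the limma fit and filled points for called differences. Cidec is the blood probe called for OVX+CUMS, Cideb, Pnpla2 and Abhd5 are called lower and Plin3 higher in blood for OVX, and in mPFC Dgat2 and G0s2 are called higher for OVX and OVX+CUMS and Dgat1 for OVX.

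Cell-type markers in blood also differed between groups. In OVX mice the erythroid list (11 of 11 probes detected) lay between -0.95 and 0.16 relative to the mean of all blood arrays, in control mice between -0.47 and 0.78, and in CUMS mice between 0.20 and 1.30. The B cell list (9 of 10 detected) was between 0.34 and 0.46 in OVX mice and between -0.24 and 0.11 in control mice. The T cell list (11 of 12 detected) was between -0.66 and -0.07 in OVX+CUMS mice and between -0.03 and 0.40 in control mice. The part of these lists in the differences of Cidec, Cideb, Plin3, Pnpla2 and Abhd5 was not tested.

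Markers of fat cells were partly at background in blood. Of 16 probes from that list, 2 were detected. The defining markers Adipoq, Lep and Cfd stood above background on 0 of 24 blood arrays, as did Cidea and Pck1, and Plin1 did on 2. Fabp4, which macrophages also express, was above background on 22 arrays, and Plin4 on all 24. Of the other listed markers, the adipokine Retn was above background on 24 and 22 arrays with its 2 probes, and the adrenergic receptor Adrb3 on 18 and 0 with its 2. The mean of the 2 detected probes separated from control in no group, and ran from -0.21 to 0.51 in control and from -0.62 to 0.77 in OVX+CUMS mice. For Lep and the Adrb3 probe seen on 18 arrays, 5 of 6 OVX+CUMS mice were above every control mouse. For Plin1, Car3 and 1 Acvr1c probe 4 were, and for each other listed probe at most 2. Plin1, Car3 and that Acvr1c probe were above background on at most 4 arrays and Lep on 0, so these carry no measured difference.

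To ask whether the other members followed Cidec from mouse to mouse, each blood probe's deviations from its group mean were correlated with those of Cidec over the 24 mice. Pearson's r ran from 0.29 for Cideb (rho 0.29, permutation p = 0.263, adjusted p = 0.671) to -0.32 for Plin3 (rho -0.19, permutation p = 0.273, adjusted p = 0.676). The other members lay between -0.16 for Dgat1 and 0.11 for the Abhd5 probe at base 2489. Thus 0 of 9 other member probes passed, either after adjustment or at an unadjusted p under 0.05. Over all 20747 other probes 0 passed the adjustment (0%) and 1375 had an unadjusted p under 0.05 (6.63%), and the middle 90% of r lay between -0.48 and 0.40. The lowest adjusted p over all probes was 0.519. Relative to spike-in RNA, r of the 9 other member probes lay between 0.11 and 0.34, with Plin3 at 0.22 in place of -0.32. None of the 9 passed on that scale either, after adjustment or at an unadjusted p under 0.05.

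Without the 2 mice farthest from the median of Cidec, which were CUMS mice 4 and 6 at -1.33 and 1.09 from their group mean, Cideb was at 0.23 and Plin3 at -0.02. Within slides, r of Cideb was 0.19, 0.27 and 0.72 on slides 1 to 3, and r of Plin3 was -0.05, -0.74 and -0.08. Of the probes named by a RefSeq gene symbol, those most like Cidec by r were Ctxn1 (0.72), Tyro3 (0.72), Bphl (0.71), Rfc4 (0.70) and Sfrp5 (0.68), each with an adjusted permutation p of 0.657. A further 5 probes without such a symbol lay above the lowest of these, the highest at 0.80. Without the 2 mice these were 0.52, 0.49, 0.48, 0.40 and 0.31. None of the 5 named is a member, and all the points share the scaling of 1 array per mouse.

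**Figure D3:**
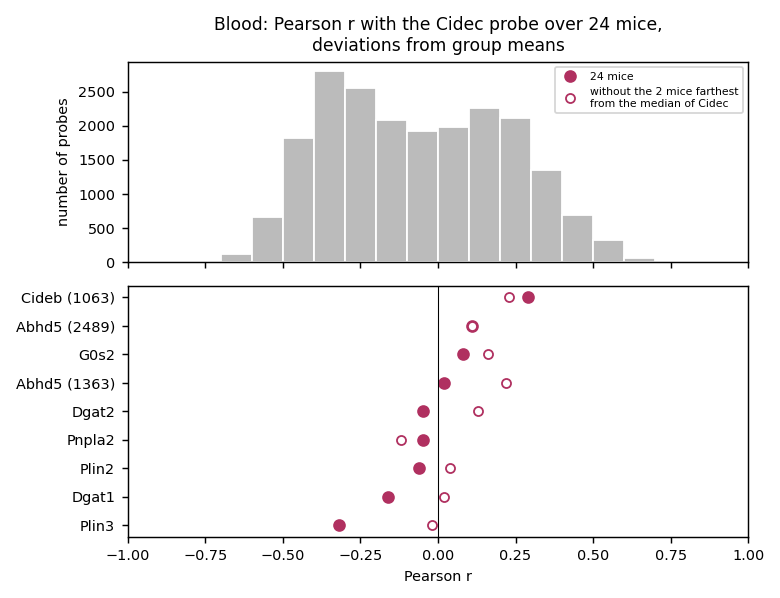
Histogram of Pearson's r with Cidec in blood for 20747 probes (deviations from group means, 24 mice), with the 9 other member probes marked at their r (filled) and at their r without the 2 mice farthest from the median (open). All member values lie between -0.32 and 0.29, inside the bulk of the histogram.

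In mPFC the genes called higher were Dgat1, Dgat2 and G0s2, by small amounts, and none of these calls held with the slide as a block. Dgat2 lay between 4.15 and 4.51 in control mice (median 4.35), between 4.21 and 4.59 in CUMS mice (4.45), between 4.52 and 4.70 in OVX mice (4.63) and between 4.45 and 4.69 in OVX+CUMS mice (4.55). All 6 OVX mice and 4 of 6 OVX+CUMS mice were above every control mouse. The differences were 0.28 ± 0.07 for OVX alone (limma F test, adjusted p = 0.0117, Tukey p = 0.002, exact permutation p = 0.00216) and 0.21 ± 0.07 for OVX+CUMS (Tukey p = 0.0236, exact permutation p = 0.0152). Relative to the spike-in RNA the OVX+CUMS difference of Dgat2 was -0.03, so its direction depended on the scaling.

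G0s2 lay between -1.98 and -1.55 in control mice (median -1.74), and its medians were -1.54 in CUMS, -1.43 in OVX and -1.41 in OVX+CUMS mice. Of the OVX mice 5 of 6 and of the OVX+CUMS mice 4 of 6 were above every control mouse. OVX+CUMS gave 0.31 ± 0.08 (limma F test, adjusted p = 0.014, Tukey p = 0.00498, exact permutation p = 0.00649), OVX alone 0.30 ± 0.08 (Tukey p = 0.0066) and CUMS alone 0.23 ± 0.08 (Tukey p = 0.0487). Dgat1 lay between -0.10 and 0.07 in control mice and between 0.08 and 0.17 in OVX mice, with no overlap. Over both stress levels OVX raised Dgat1 by 0.15 ± 0.04 (limma, adjusted p = 0.00661), Dgat2 by 0.19 ± 0.05 (adjusted p = 0.0045) and G0s2 by 0.19 ± 0.06 (adjusted p = 0.0149).

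The other members were not called in mPFC. Both Cideb probes, Plin2, Plin3, Pnpla2, Lipe and all 3 Abhd5 probes had OVX+CUMS differences between -0.15 and 0.17. Lipe varied most among OVX mice, from -4.12 through -3.52 to -1.83, with a difference from control of 0.55 ± 0.27 (limma F test, adjusted p = 0.331). By count, 3 of 12 member probes were called for OVX, all higher, against 30.9% of all (19.1% higher), 0 for CUMS against 4.2%, 0 for the interaction against 4.47%, 2 for OVX+CUMS against 27.1% (15.9% higher), 2 for OVX alone against 26.2% (14.9% higher) and 1 for CUMS alone against 17% (7.89% higher). Relative to spike-in RNA, 1 member was called for OVX and it was lower (Pnpla2, -0.20), while Dgat1, Dgat2 and G0s2 were at 0.01, 0.06 and 0.06 and were not called. On that scale the median of all mPFC probes for OVX+CUMS moved from 0.06 to -0.18. For OVX+CUMS and control, 0 of the 12 had groups that did not overlap, against 17.2% of all. At an unadjusted p under 0.05, limma gave 1 member for CUMS (Abhd5 at base 503) and 1 for the interaction (Plin2). With the slide as a block, no member was called in mPFC for OVX, OVX+CUMS, OVX alone or CUMS alone. Within slide 3, OVX+CUMS and OVX mice differed by 0.00 in Dgat2 and by 0.07 in G0s2.

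Cidec was at the edge of background in mPFC. The probe at base 552 stood above background on 0 of 6 control, 0 of 6 CUMS, 1 of 6 OVX and 3 of 6 OVX+CUMS arrays. Its signal was 7.02 to 11.8 in control mice and 13.9 to 29.6 in OVX+CUMS mice, and these groups did not overlap. Set against the dimmest signal that counted as above background on the control arrays, the OVX+CUMS mean was 1.3-fold higher. That mean includes arrays where the probe was not above background, so 1.3-fold is no strict lower bound. All control mice were on slide 1 and all OVX+CUMS mice on slide 3, so slide and group cannot be told apart here. OVX mice averaged -6.925 on slide 2 and -5.791 on slide 3. The other Cidec probe was above background on 0 of 24 mPFC arrays. In the same tissue Cidea, the third CIDE gene, was above background on all 24 arrays at signals of 642.3 to 2116.

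**Figure D4:**
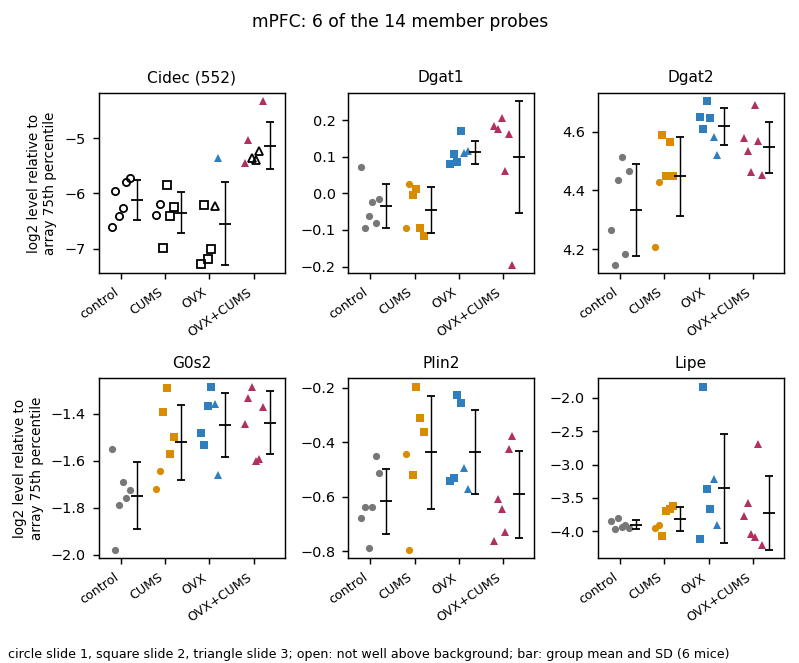
Levels in mPFC of Cidec (the probe at base 552), Dgat1, Dgat2, G0s2, Plin2 and Lipe (log2 signal minus the array's 75th percentile), 1 point per mouse, with open points for arrays where the probe was not well above background and bars for the mean ± SD of 6 mice. Most OVX and OVX+CUMS mice lie above the control mice in Dgat2 and G0s2, and most Cidec points are open.

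Whether an effect differed between the tissues was tested for the 9 member probes detected in both, with each mouse as a random block. The OVX effect in blood minus that in mPFC was -0.66 ± 0.17 for Cideb (limma, adjusted p = 0.00277), 0.42 ± 0.14 for Plin3 (adjusted p = 0.0198) and -0.43 ± 0.13 for Abhd5 at base 1363 (adjusted p = 0.00782). That is 3 of 9 against 39.3% of all probes detected in both tissues. A slide block moved these differences to -0.03 ± 0.38 for Cideb, 0.06 ± 0.33 for Plin3 and -0.42 ± 0.31 for Abhd5, and 0 members and 0 of all 17529 probes were called for OVX. Relative to the spike-in RNA they were -0.19, 0.89 and 0.04. On that scale the 3 of 9 members called were Plin3, Dgat1 and Plin2, all higher, against 65.3% of all probes. For OVX+CUMS against control 0 of 9 were called against 15.2% of all, and for CUMS 0 of 9 against 51.4%, with no member at an unadjusted p under 0.05 in either. Dgat2 and G0s2, called in mPFC, did not differ by this test from their OVX effects in blood (-0.01 ± 0.30 and -0.39 ± 0.18, adjusted p = 0.987 and 0.0736).

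Blood and mPFC levels of the same mouse, paired by replicate number, were then correlated over the 24 mice, as deviations from the group means. Pnpla2 had the highest r among the members, 0.53 (rho 0.44, permutation p = 0.0186, adjusted p = 0.419), and G0s2 the lowest, -0.39 (rho -0.39, permutation p = 0.0899, adjusted p = 0.575). After adjustment 0 of 9 member probes and 0 of 17529 probes passed (0%), and at an unadjusted p under 0.05 1 member and 1733 probes did (9.89%).

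Beyond the members, other genes of lipid storage were read from fixed lists of the remaining CIDE and perilipin genes, droplet formation, lipases, ester synthesis, fatty acid uptake, oxidation and transcriptional regulators. No values with the slide as a block or relative to spike-in RNA are given for these genes in either tissue. All control mice were on slide 1 and all OVX+CUMS mice on slide 3, so slide and group cannot be told apart in that comparison. With the slide as a block, no member kept an OVX or OVX+CUMS call in either tissue. In blood 61 probes of 55 genes were detected. OVX raised 19 and lowered 17 of them (59% called, against 55.1% of all probes), and CUMS raised 8 and lowered 25 (54.1%, against 48.5%). For OVX+CUMS against control 2 were called (3.28%, against 10.4%). The shares for OVX and CUMS were near those of all probes and that for OVX+CUMS was below. Gpam, the mitochondrial acyltransferase that starts glycerolipid synthesis, rose by 1.93 ± 0.45 (limma F test, adjusted p = 0.00496). It was between -1.88 and 0.05 in control mice and between 0.32 and 1.46 in OVX+CUMS mice, with no overlap, and CUMS over both surgeries raised it by 1.16 ± 0.32 (limma, adjusted p = 0.00647). Nr1h2, a liver X receptor, changed by -0.36 ± 0.10 (limma F test, adjusted p = 0.000835).

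For the separate factors in blood, CUMS raised the fatty acid transporter Cd36 by 0.66 ± 0.17, Cpt1c by 0.61 ± 0.15 and the acyl-CoA synthetase Acsl1 by 0.54 ± 0.14 (limma, adjusted p from 0.00364 to 0.00461). OVX changed Cpt1c by -1.01 ± 0.15 (limma, adjusted p = 9.22e-05), raised the acyltransferase Gpat3, named Agpat9 on the array, by 0.76 ± 0.13 (adjusted p = 0.000183) and changed the retinoid X receptor Rxra by -0.71 ± 0.15. Gpam, called for CUMS above, was raised by OVX too, by 0.77 ± 0.32 (limma, adjusted p = 0.0425).

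In mPFC 109 probes of 79 genes were detected on the same lists, and OVX+CUMS raised 25 and lowered 6 (28.4% called, against 27.1% of all probes). Of the 25 probes of transcriptional regulators, 4 were higher and 4 lower, with a median difference of 0.0042. The regulators among the 8 largest changes were Mlxipl at -0.69 ± 0.20, Ppargc1b at -0.63 ± 0.14, Ppara at -0.54 ± 0.08 and Rxra at -0.52 ± 0.13 (limma F test, adjusted p from 9.66e-05 to 0.0381). The mitochondrial carrier Ucp2 rose by 0.55 ± 0.11, Lpcat1 by 0.42 ± 0.08, Vps13a by 0.40 ± 0.09 and the monoglyceride lipase Mgll by 0.39 ± 0.10 (limma F test, adjusted p from 0.0025 to 0.0214). OVX raised 23 and lowered 7 (27.5%, against 30.9%), and CUMS raised 7 and lowered 0 (6.42%, against 4.2%), which included Vps13a at 0.30, Abhd6 at 0.20, Foxo1 at 0.17 and Spast at 0.16. The microglia list of mPFC (11 of 11 probes detected) lay between -0.16 and -0.02 in control mice and between -0.05 and 0.21 in OVX+CUMS mice. The B cell list (3 of 10 detected) was between 0.19 and 0.74 in control mice and between -0.36 and 0.01 in OVX+CUMS mice, with no overlap. The T cell list (5 of 12 detected) ran from -0.01 to 0.28 in control mice and from -0.15 to 0.05 in OVX+CUMS mice. The part of these lists in the mPFC differences was not tested.

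Promoters of the members were searched for 3 motifs on both strands, from 250 bases before to 50 after the start, in RefSeq sequences of GRCm38.p6. Of the 10 genes 8 had such a sequence, in 10 promoters, and Dgat1 and Dgat2 did not match. The PPAR-RXR direct repeat AGGTCANAGGTCA was in 0 of the 10 and in 0.0396% of all 32851 promoters. The glucocorticoid receptor palindrome GAACANNNTGTTC was in 0 of 10 and in 0.0578%, and the estrogen receptor palindrome GGTCANNNTGACC in 0 of 10 and in 0.07%. No match says only that these letters are not in this window.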

How the data were processed

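Whole blood pellets and mPFC of 24 mice were measured on 48 Agilent one-colour arrays (Cy3), and groups were taken from the sample labels. Arrays of the 2 tissues with the same group and replicate number were taken as 1 mouse, which the labels do not state outright. Replicates of a group were taken as separate mice. The authors deposited Feature Extraction 10.7.3.1 scanner files, whose processed signal is a background-subtracted intensity with probe positions in mm9. They also deposited a table of log2 values made by a 75th percentile shift. After 1 constant per array, 100% of its values were within 0.001 of log2 of the scanner signal, and it served as an alternative.

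Spots of a probe were averaged, control spots left out, and each array's 75th percentile subtracted from log2 signal. Detection asked for the positive-and-significant and well-above-background flags on all 24 arrays of a tissue, no outlier flag, and a signal over 50 on at least 2 arrays. Models were fitted on all detected probes of a tissue with R 4.3.3 and limma 3.58.1, as a factorial model of surgery and stress and as a moderated F test over 4 groups followed by Tukey's comparison. P-values were adjusted by Benjamini-Hochberg over all detected probes, at 0.05, and all tests were two-sided. A group comparison was called when both the adjusted F test and Tukey's p passed. Correlations used 100000 permutations of mice within groups (Python 3.11.15, numpy 2.4.6, scipy 1.17.1, numba 0.67.0). Figures were drawn with matplotlib 3.10.9.

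The members, the lists of other lipid genes and the marker lists were chosen with earlier results of these data known. All member probes are described. Of the other lipid genes, up to 8 detected probes per tissue with the largest called change for OVX+CUMS were named, and up to 4 for each factor. In simulated data, OVX+CUMS changes of 1 on the log2 scale were recovered in 83% of 200 changed blood probes (20748 tested) and in 97.5% of 200 in mPFC (28353 tested), and changes of 0.5 in 8% and 72%. The simulated noise was independent and had no slide effect, and only 200 probes changed. In the data 55.1% of blood probes were called for OVX and slides were tied to groups, so these rates may not hold there. Precision is limited by 6 mice per group. Alternatives covered background correction, scaling, detection, spread, slide, replicate number and leaving out each array. Coordinates come from the array files, and exon or UTR status of the probes was not derived here.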

Additional observations from a re-analysis of the deposited data

Results flagged for a closer look

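In each group of 6 mice, the highest and lowest member value was compared with its nearest neighbour by Dixon's ratio, for which chance gives about 1 in 20 groups. Of 112 groups of 6, 15 (13.4%) had such a value. In blood, OVX+CUMS mouse 5 accounted for 5 of them, at 2.25 for Plin2, -1.22 and -0.25 for Abhd5 at bases 503 and 1363, 2.41 for Dgat1 and 2.97 for Dgat2. Its neutrophil markers stood apart too, and their part was not tested. CUMS mouse 2 was at -0.55 for the Cidec probe at base 1642 and 4.42 for Pnpla2 in blood. In mPFC the same mouse was at -5.54 for that Cidec probe, below background, and 1.01 for Plin3. The other blood values were 4.26 for Pnpla2 in control mouse 2, 0.86 for Dgat1 in OVX mouse 4, and -0.43 and -0.25 for G0s2 in control mouse 5 and CUMS mouse 5. In mPFC they were 1.68 for Pnpla2 in control mouse 1 and -0.20 for Dgat1 in OVX+CUMS mouse 6.

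The OVX effect differed between the tissues by the limma test of the difference for 3 probes. Blood minus mPFC was -0.66 for Cideb, 0.42 for Plin3 and -0.43 for Abhd5 at base 1363. These became -0.03, 0.06 and -0.42 with the slide as a block, and none was called.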

How the results depend on the processing

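Cidec was called for OVX+CUMS in blood with each of the 24 arrays left out (0.88 to 1.03) and under every other setting but 2, the slide as a block and detection asked on all 48 arrays, under which Cidec is not tested. Counts of member probes called moved as follows, and the cause was not tested. In blood, OVX (5) gave 3 relative to spike-in RNA (all higher), 3 without the detection filter and 0 with the slide as a block. CUMS (2) gave 1 with quantile normalization, spike-in scaling, detection on all 48 arrays, no moderation of the spread or the replicate number as a block, and 0 without the filter. OVX+CUMS (1) gave 0 with detection on all 48 arrays and 0 with the slide block. OVX alone (3, all lower) gave 1 without the filter, 0 with the slide block and 2 relative to spike-in RNA, both higher. In mPFC, OVX (3, all higher) gave 1 with spike-in scaling, which was lower, and 0 with the slide block, CUMS (0) gave 1 lower with spike-in scaling, and OVX+CUMS (2) gave 1 with quantile normalization or the percentile of detected probes and 0 with spike-in scaling or the slide block. OVX alone (2) gave 0 with either of the last. CUMS alone (1) gave 0 with the percentile of detected probes, spike-in scaling, no filter, no moderation, the slide block, the replicate block or a limma contrast. The OVX effect in blood less that in mPFC (3) gave 0 with the slide block. Directions turned with spike-in scaling for Pnpla2 in blood (OVX 0.0789, OVX alone 0.0076) and Dgat2 in mPFC (OVX+CUMS -0.0254), and with the slide block for Cideb (OVX 0.10), Abhd5 at base 2489 (OVX 0.0058) and Pnpla2 (OVX alone 0.0281).

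Leaving out 1 array gave 3 to 6 calls for OVX in blood (outside 1.5 times without control 2, CUMS 2 or OVX+CUMS 3), 1 to 3 for CUMS, 1 to 4 for OVX alone, 0 to 1 for CUMS alone, 1 to 3 for OVX+CUMS (3 without OVX+CUMS 5) and 0 to 1 for the interaction. The CUMS count stayed within 1.5 times in 7 of 24 of these fits, and the OVX alone count in 15 of 24. In mPFC, leaving out 1 array gave 3 to 3 for OVX, 1 to 3 for OVX+CUMS (changed without control 1, 2 or 5 or OVX+CUMS 4), 2 to 3 for OVX alone, 0 to 2 for CUMS alone, 0 to 1 for the interaction and 0 to 0 for CUMS. The CUMS alone count in mPFC stayed at 1 in 7 of 24 of these fits. The replicate numbers did not pair mice of different groups, as the correlation of same-numbered deviations ran from -0.508 to 0.488 in blood and from -0.23 to 0.391 in mPFC, and besides the 2 counts above the block moved OVX alone in blood from 3 to 2. Near background, neither Lipe in blood nor Cidec in mPFC has a measured fold.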
